A study of Mus musculus with 18 samples.

Results

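The SLAM family of surface receptors and their SAP adaptors were followed through 3 stages of mouse natural killer (NK) cell maturation, in mice with and without the transcription factor Runx3. The family was taken as 9 genes, the receptors Slamf1, Slamf6, Slamf7, Cd48, Cd84, Ly9 and Cd244a, and the adaptors Sh2d1a and Sh2d1b1. A gene was read from the probe set that carries its symbol and no other, and each of the 9 had exactly 1 such probe set. They are 9 of 19938 genes with a single-symbol probe set, on arrays of 35399 probe sets.

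NK cells came from spleens of 6 week old ICR mice, an outbred stock, labelled male or female. WT mice were Runx3 +/+ and KO mice Runx3 -/-, so every cell of a KO mouse carries the mutation and not only its NK cells. Mice of both genotypes had received complexes of IL15 with its receptor alpha chain, injected 2 times with 2 days between, and no uninjected group is analysed here. NKp46+ cells were sorted by CD27 and CD11b, which mark successive stages: CD27+CD11b- cells (CD27), CD27+CD11b+ cells (DP) and CD27-CD11b+ cells (CD11b). Each subset of each genotype was measured on 3 arrays, 18 in all. Equal replicate numbers are not stated to mean 1 mouse, nor is it stated whether mice were pooled, so p-values measure the spread between arrays, some of which may share animals.

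SLAM receptors are immunoglobulin-like proteins of blood cells. Most bind a copy of themselves on a neighbouring cell, whereas Cd244a, the receptor 2B4, binds the lipid-anchored protein Cd48. Tyrosine motifs in the receptor tails recruit Sh2d1a (SAP), which brings in the kinase Fyn, and Sh2d1b1 (EAT-2), which in NK cells links the receptors to phospholipase C gamma. With these adaptors the receptors favour killing of blood-cell targets, and without them they can bind phosphatases and inhibit the NK cell. Among genes listed as protein-coding in the RefSeq annotation, the 7 receptor genes lie next to each other on chromosome 1. Their order is Cd244a, Ly9, Slamf7, Cd48, Slamf1, Cd84, Slamf6, with 1 other such gene among them. Sh2d1b1 also lies on chromosome 1, and Sh2d1a on chromosome X.

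The 250 bases before the annotated start are printed for the 4 members that passed the test of KO against WT averaged over subsets, and for Slamf6, whose level varied most (RefSeq, GRCm38.p6, 5′ to 3′, lower case). Capitals mark the core of a Runx motif, searched as TGTGGT or TGCGGT on either strand (ACCACA or ACCGCA as printed when on the other strand).
Slamf1, chr1:171766882-171767131, plus strand: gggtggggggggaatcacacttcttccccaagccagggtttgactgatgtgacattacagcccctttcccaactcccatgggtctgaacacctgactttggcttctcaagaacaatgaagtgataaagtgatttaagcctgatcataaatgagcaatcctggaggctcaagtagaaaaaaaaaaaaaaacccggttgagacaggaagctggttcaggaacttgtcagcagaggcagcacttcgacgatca
Slamf7, chr1:171649000-171649249, minus strand: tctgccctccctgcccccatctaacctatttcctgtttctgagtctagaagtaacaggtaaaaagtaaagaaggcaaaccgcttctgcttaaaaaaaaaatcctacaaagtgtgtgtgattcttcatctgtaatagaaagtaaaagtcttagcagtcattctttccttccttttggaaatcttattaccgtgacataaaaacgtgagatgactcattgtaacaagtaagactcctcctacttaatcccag
Cd244a, chr1:171558943-171559192, plus strand: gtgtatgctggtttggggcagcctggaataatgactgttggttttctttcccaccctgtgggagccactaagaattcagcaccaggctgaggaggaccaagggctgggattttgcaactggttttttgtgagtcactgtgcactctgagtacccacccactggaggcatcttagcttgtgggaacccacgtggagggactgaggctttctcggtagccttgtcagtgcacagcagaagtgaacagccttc
Sh2d1b1, chr1:170277068-170277317, plus strand: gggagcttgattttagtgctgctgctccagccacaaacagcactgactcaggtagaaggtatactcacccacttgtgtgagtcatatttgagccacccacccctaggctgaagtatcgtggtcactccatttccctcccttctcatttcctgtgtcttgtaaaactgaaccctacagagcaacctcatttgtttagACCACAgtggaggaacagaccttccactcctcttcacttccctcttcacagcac
Slamf6, chr1:171917212-171917461, plus strand: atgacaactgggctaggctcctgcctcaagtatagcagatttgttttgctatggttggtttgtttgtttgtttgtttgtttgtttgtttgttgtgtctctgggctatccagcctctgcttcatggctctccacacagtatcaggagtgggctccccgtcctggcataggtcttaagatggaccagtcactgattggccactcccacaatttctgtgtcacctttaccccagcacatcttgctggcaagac
A core was present in the window of Sh2d1b1, as ACCACA 54 bases before the start, and the other windows printed hold none of these letters. Windows were matched for 7 of the 9 members, and Cd48 and Cd84, not printed, also held a core, TGTGGT, 76 and 45 bases before their starts. That made 3 of 7, where 18.6% of 32851 promoter windows of the same length held at least 1 core. A match describes the letters and is not a binding site shown by these arrays, and its absence here says nothing of Runx3 elsewhere at the gene.

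The arrays correlated with each other at 0.96 to 0.995 over all probe sets, and values ran from 3.91 to 14.96 on the log2 scale. Runx3 was 1.46-fold lower in KO cells on average (limma, adjusted p = 0.000116), with every KO array below every WT array in its subset. Its remaining signal was 10.73 to 11.46 on KO arrays, and where the probes lie relative to the deleted part is not given. The NK marker Ncr1 had group means of 13.58 to 13.75. The 3 arrays of KO replicate 3 stood apart: the mean of 10 markers of dendritic cells and antigen presentation (MHC class II) was 6.10, 6.45 and 9.07 in its CD27, DP and CD11b cells, against at most 5.50 on WT arrays. The CD11b array of KO replicate 1 was also above them at 5.99, and the other 5 KO arrays lay at 5.36 to 5.40. The CD11b array of KO replicate 3 also had a neutrophil marker mean of 9.26, which was at most 5.62 on the other 17 arrays. Its macrophage and monocyte marker mean was 6.87, against at most 5.75 on the others. Smaller excesses were seen for B cell markers (5.89 against at most 5.63) and erythroid and platelet markers (5.84 against at most 5.62). Results that rest on KO replicate 3 are given below with and without its arrays.

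**Figure D1:**
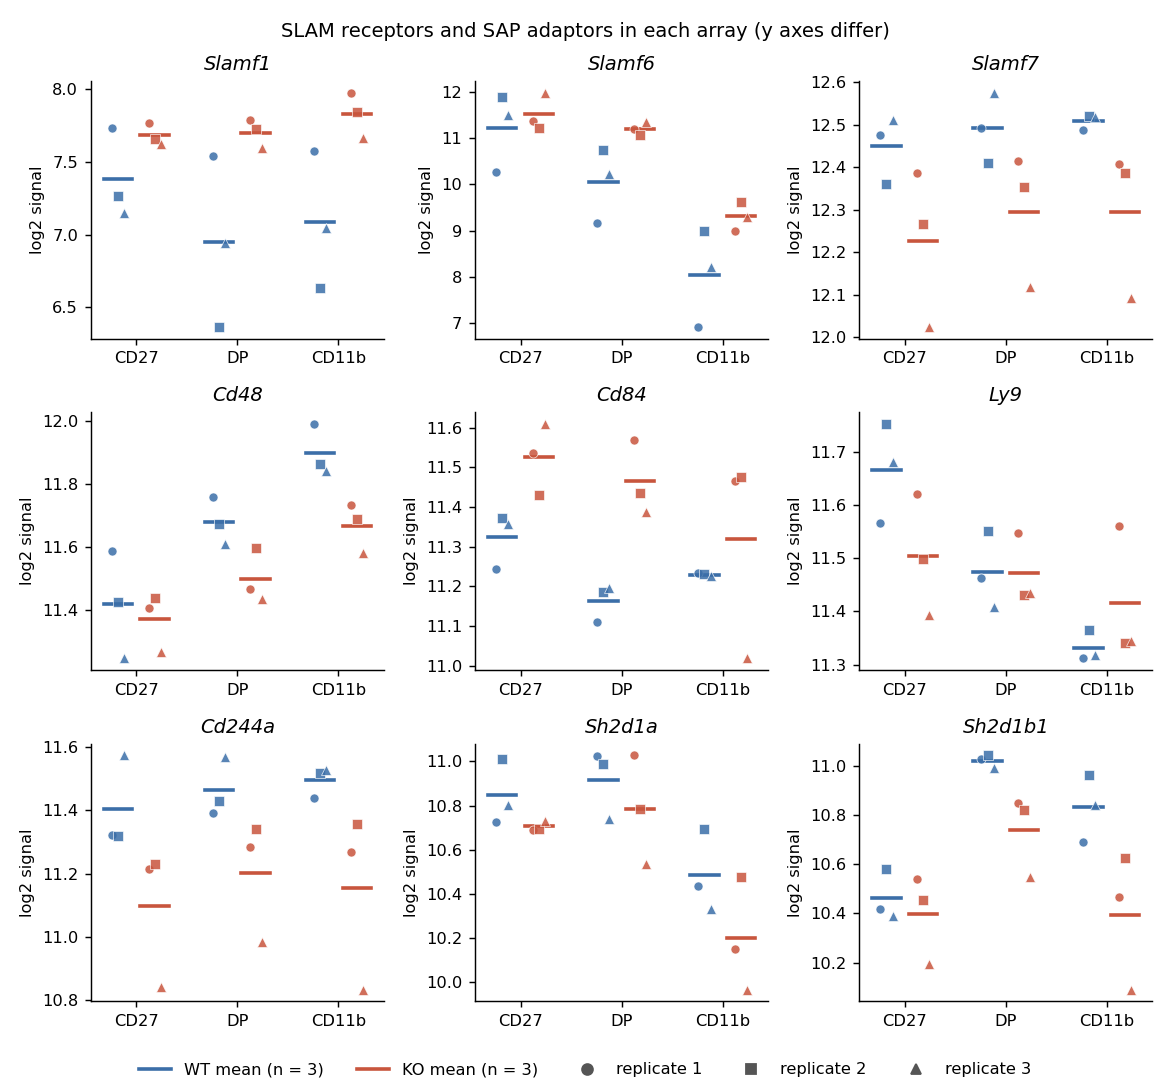
Log2 expression of the 9 members on each of the 18 arrays, by NK subset, with 1 point per array, the symbol giving the replicate number, short lines at group means and a y axis of its own for each gene. Slamf6 spanned 5.06 log2 units over the arrays and no other member more than 1.61.

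Slamf6, the receptor Ly108, was the member with the widest range and fell steeply with maturation in both genotypes. In WT mice it read 10.27, 11.88 and 11.49 in CD27 cells (replicates 1, 2 and 3), 9.16, 10.73 and 10.22 in DP cells, then 6.92, 8.995 and 8.21 in CD11b cells. In KO mice it read 11.37, 11.21 and 11.97 in CD27 cells, 11.19, 11.06 and 11.35 in DP cells, then 8.999, 9.63 and 9.30 in CD11b cells. In each genotype every CD11b array lay below every DP array and every CD27 array. The group means in order were CD27 KO 11.52, CD27 WT 11.21, DP KO 11.20, DP WT 10.04, CD11b KO 9.31 and CD11b WT 8.04, and the first 3 overlapped, as did DP WT with CD27 WT. DP WT also overlapped CD11b KO, while the genotypes did not overlap in DP or in CD11b cells.

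Between CD27 and CD11b cells of WT mice Slamf6 fell by 3.17 on the log2 scale, 9.02-fold (95% interval 4.24 to 19.2, limma, adjusted p = 0.00189). In KO mice it fell by 2.21, 4.62-fold (2.17 to 9.82, adjusted p = 0.0375). The WT call held when any 1 of the 18 arrays was left out, with adjusted p up to 0.0127. The KO call was lost without any 1 of 10 arrays (all 3 CD27 KO and all 3 CD11b KO arrays, DP KO replicates 1 and 2, and replicate 3 of DP WT and CD11b WT), with adjusted p up to 0.146, and without the 3 arrays of KO replicate 3 the difference was -1.97 (adjusted p = 0.22).

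Set against arrays of the same replicate number, the fall was similar in the 3 WT replicates. That equal numbers pair CD27 with DP cells in WT mice was not shown by those arrays directly, only through CD11b cells. From CD27 to DP cells Slamf6 differed by -1.12, -1.14 and -1.26 in WT replicates 1, 2 and 3, and by -0.18, -0.14 and -0.62 in KO replicates. From DP to CD11b cells the differences were -2.24, -1.74 and -2.02 in WT and -2.19, -1.44 and -2.05 in KO. The 3 WT replicates thus had different levels and similar steps, and the genotypes overlapped in the second step and not in the first. Over the 9 members the steps of the genotypes did not overlap for 4 from CD27 to DP cells (9.21% of all probe sets). The counts were 0 from DP to CD11b cells (16.4%) and 5 from CD27 to CD11b cells (14.2%). Of these counts the first rests on the WT pairing not shown directly. Each that did not overlap had p = 0.1, the smallest value the two-sided exact permutation test allows. With genotype and replicate number as a block, a fit added after seeing the data, the step from DP to CD11b passed in both genotypes (adjusted p = 0.000294 in WT and 0.00077 in KO); without the block it did not (0.124 and 0.176). The difference between genotypes in the first step did not pass with the block (adjusted p = 0.749), nor that in the whole fall from CD27 to CD11b cells (0.187).

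Slamf6 was not called between genotypes in any subset. For CD27 cells KO minus WT was 0.30 (adjusted p = 0.916), for DP cells 1.16 (2.24-fold, 95% interval 1.05 to 4.76, adjusted p = 0.488) and for CD11b cells 1.27 (2.41-fold, 1.13 to 5.13, adjusted p = 0.297). All KO arrays lay above all WT arrays in DP and in CD11b cells, in the latter by 8.999 against 8.995. Averaged over subsets the difference was 0.91 (1.88-fold, 1.22 to 2.91, adjusted p = 0.0734). WT replicate 1 had the lowest WT value in every subset, and without its 3 arrays the adjusted p of the average was 0.421.

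Markers of other cells also fell from CD27 to CD11b cells. The mean of 5 ILC1-like markers on WT arrays was 9.71 to 10.27 in CD27 cells, 8.13 to 8.29 in DP cells and 6.96 to 7.13 in CD11b cells. In KO mice it was 9.92 to 10.28, 8.28 to 9.14 and 7.26 to 7.83. The mean of 10 T cell markers was 7.65 to 8.07 on CD27 WT arrays, where 5 of the 10 lay above the array's median on at least 1 array. On CD11b WT arrays it was 6.35 to 6.57, with 3 of the 10. In KO mice it was 7.31 to 7.42 in CD27 cells and 6.55 to 6.92 in CD11b cells, with 6 of the 10 in each. In DP cells the T cell mean was 6.98 to 7.06 in WT and 6.84 to 7.05 in KO mice. From CD27 to DP cells of KO mice both marker means fell without overlap. Over that step the Slamf6 arrays overlapped, and Slamf6 differed by -0.18, -0.14 and -0.62 in KO replicates 1, 2 and 3. The part of these other cells in the Slamf6 and Ly9 results was not tested. In such bulk samples fewer cells of a type and less RNA per cell cannot be told apart.

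**Figure D2:**
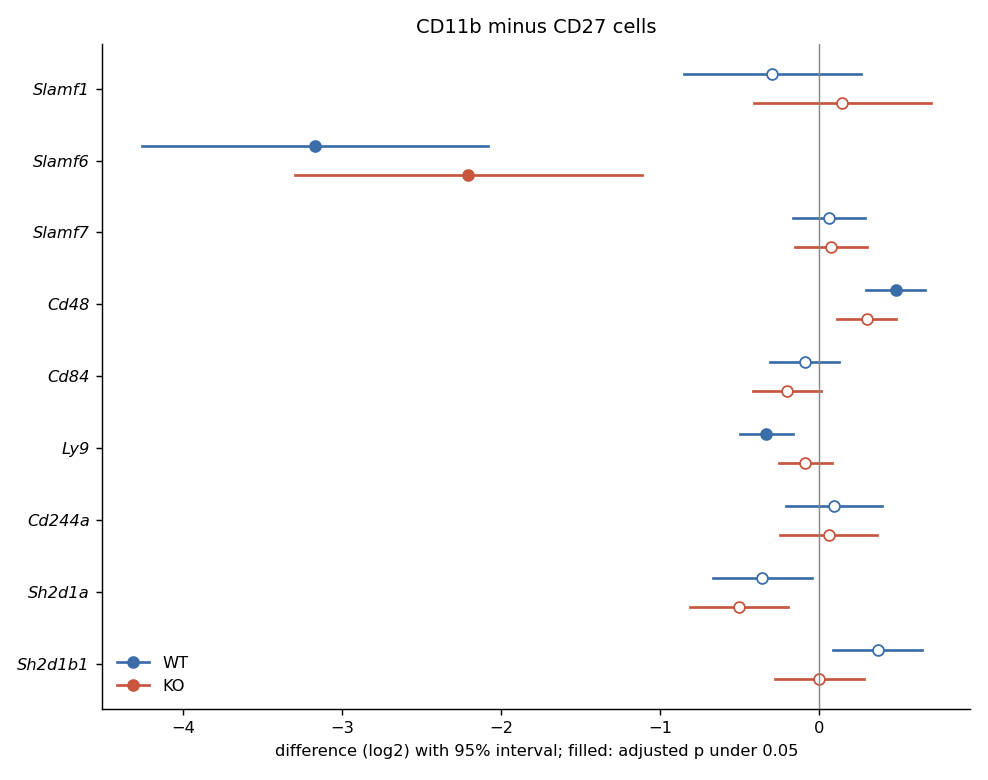
CD11b minus CD27 log2 difference of each member in WT and KO mice, with 95% intervals from limma and filled points where the adjusted p was under 0.05. Slamf6 lies at -3.17 in WT and -2.21 in KO mice, and the other filled points are Cd48 at 0.48 and Ly9 at -0.33 in WT mice.

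Slamf1, the founding receptor SLAM (CD150), was the member that passed as higher in KO cells in the average over subsets. Slamf6 and Cd84 were also higher in KO cells of every subset and did not pass in that fit. WT arrays read 7.73, 7.27 and 7.15 in CD27 cells, 7.54, 6.36 and 6.94 in DP cells, then 7.57, 6.64 and 7.05 in CD11b cells. KO arrays read 7.77, 7.66 and 7.62 in CD27 cells, 7.79, 7.72 and 7.59 in DP cells, then 7.98, 7.84 and 7.66 in CD11b cells. KO arrays stayed within 7.59 to 7.98, whereas WT replicate 1 was the highest WT array of every subset at 7.54 to 7.73. KO and WT did not overlap in DP or CD11b cells and did overlap in CD27 cells. Averaged over subsets Slamf1 was 1.51-fold higher in KO cells (95% interval 1.21 to 1.89, limma, adjusted p = 0.0252). By subset it was 1.69-fold higher in DP cells (adjusted p = 0.341) and 1.67-fold higher in CD11b cells (adjusted p = 0.224), and neither passed.

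The average for Slamf1 lost its call without CD27 WT replicate 2 or 3 or CD11b WT replicate 2 or 3 (limma, adjusted p up to 0.0537). The call was also lost without the 3 arrays of KO replicate 3 (0.0599), KO replicate 1 or 2, or WT replicate 2 or 3. With sample means the adjusted p was 0.364. Without the 3 arrays of WT replicate 1 the average was 0.84 (adjusted p = 0.000592). Slamf1 then also passed in DP cells (1.05, adjusted p = 0.0214) and CD11b cells (0.99, adjusted p = 0.0215). WT replicate 1 thus held the highest WT level of Slamf1 and the lowest of Slamf6. In KO mice the spread was smaller for both genes. The subsets themselves were not called apart for Slamf1 in either genotype.

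**Figure D3:**
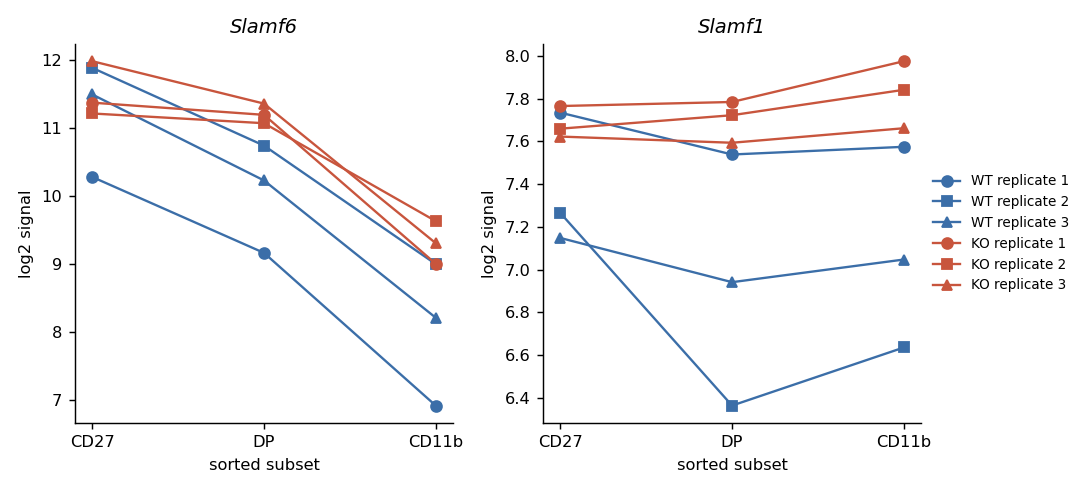
Log2 level of Slamf6 (left) and Slamf1 (right) in CD27, DP and CD11b cells, with 1 line per genotype and replicate number joining its 3 arrays. WT replicate 1 is the lowest WT line for Slamf6 and the highest WT line for Slamf1, and the 3 WT lines for Slamf6 run nearly parallel.

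Cd48, the ligand of Cd244a, went the other way from Slamf6 with maturation. In WT mice it read 11.59, 11.42 and 11.25 in CD27 cells, 11.76, 11.67 and 11.61 in DP cells, then 11.99, 11.86 and 11.84 in CD11b cells. In KO mice it read 11.41, 11.44 and 11.27, then 11.47, 11.60 and 11.44, then 11.73, 11.69 and 11.58. The 3 WT subsets did not overlap, and in KO mice CD27 and CD11b cells did not. Cd48 rose 1.39-fold from CD27 to CD11b cells in WT mice (95% interval 1.23 to 1.58, limma, adjusted p = 0.00424), a call kept without any 1 array. The call was lost without the 3 arrays of WT replicate 2 or those of WT replicate 3 (adjusted p up to 0.0668). In KO mice it was 1.23-fold higher (1.08 to 1.40, adjusted p = 0.106), which passed with genotype and replicate number as a block (0.0107). KO arrays lay below WT arrays in DP and CD11b cells, and the average of -0.15 did not pass (adjusted p = 0.0749).

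Ly9 (CD229), a receptor that binds itself, fell with maturation in WT cells by a small step. WT arrays read 11.57, 11.75 and 11.68 in CD27 cells, 11.46, 11.55 and 11.41 in DP cells, then 11.31, 11.36 and 11.32 in CD11b cells. These subsets did not overlap, and the fall from CD27 to CD11b cells was 1.26-fold (95% interval 1.12 to 1.41, limma, adjusted p = 0.0211). It lost its call without CD27 WT replicate 2 or 3 or any 1 of the CD11b WT arrays, with adjusted p up to 0.0972. The call was also lost without the 3 arrays of any 1 WT replicate (up to 0.19). KO arrays spanned 11.39 to 11.62, 11.43 to 11.55 and 11.34 to 11.56 in the same order and overlapped, and the difference was -0.09 (adjusted p = 0.706). That the step differed between genotypes was not shown: the interaction was 0.25 (adjusted p = 0.826), and 0.263 was its adjusted p with the block. Ly9 differed least between genotypes, by -0.03 on average (adjusted p = 0.808).

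Together 3 of the 9 members passed in WT CD11b against CD27 cells: Cd48 higher, where 2.88% of all probe sets passed as higher, and Slamf6 and Ly9 lower, where 2.13% passed as lower. In KO mice 1 of 9 passed, Slamf6, with a background of 2.07%. The median difference of the 9 was -0.09 in WT and 0.00 in KO mice, and that of all probe sets 0.02 in both. No member passed between neighbouring stages in that fit, where the backgrounds were 0.557% (WT DP against CD27), 0.525% (WT CD11b against DP), 0.0198% (KO DP against CD27) and 0.514% (KO CD11b against DP). At an unadjusted p under 0.05 the limma counts for these were 4, 3, 1 and 3 of 9, where 8.25%, 8.36%, 5.66% and 8.12% of all probe sets were under it.

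Cd84, another self-binding receptor, had higher values on KO arrays. WT arrays read 11.24, 11.37 and 11.36 in CD27 cells, 11.11, 11.19 and 11.20 in DP cells, and 11.23 on all 3 CD11b arrays. KO arrays read 11.54, 11.43 and 11.61 in CD27 cells, 11.57, 11.44 and 11.39 in DP cells, then 11.47, 11.48 and 11.02 in CD11b cells. KO and WT did not overlap in CD27 and DP cells, and in CD11b cells the array of KO replicate 3 alone lay below WT. The average difference was 0.20 (1.15-fold, 95% interval 1.05 to 1.25, limma, adjusted p = 0.0522) and did not pass. Without the 3 arrays of KO replicate 3 it was 0.25 and passed (adjusted p = 0.00245), as did the difference in DP cells (0.34, adjusted p = 0.0469).

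Cd244a and Slamf7 (CRACC), the receptors best known for triggering NK cells, were both lower in KO cells. Cd244a read 11.32, 11.32 and 11.57 in CD27 WT cells, 11.39, 11.43 and 11.57 in DP WT cells, and 11.44, 11.52 and 11.53 in CD11b WT cells. In KO cells it read 11.22, 11.23 and 10.84, then 11.28, 11.34 and 10.98, then 11.27, 11.36 and 10.83. All KO arrays were below all WT arrays of their subset, and KO replicate 3 was the lowest of each. Averaged over subsets Cd244a fell 1.23-fold (95% interval 1.09 to 1.39, limma, adjusted p = 0.0342). The call ended with the sample as a random block (0.0585), with sample means (0.417) and without KO replicate 3, where the difference was -0.17 (0.0642).

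Slamf7 varied little with maturation, with WT arrays at 12.36 to 12.51 in CD27 cells, 12.41 to 12.58 in DP cells and 12.49 to 12.52 in CD11b cells. KO arrays read 12.39, 12.27 and 12.02 in CD27 cells, 12.41, 12.35 and 12.12 in DP cells, then 12.41, 12.39 and 12.09 in CD11b cells. Only the CD11b arrays of the genotypes did not overlap, and KO replicate 3 was again the lowest. The average fell 1.16-fold (1.06 to 1.27, limma, adjusted p = 0.0478). This call too ended with the random block (0.0814), with sample means (0.448) and without KO replicate 3 (-0.11, adjusted p = 0.124). Neither gene was called in a single subset, with adjusted p from 0.314 to 0.589.

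The adaptor Sh2d1b1 (EAT-2) had the highest group mean of each genotype in DP cells and was lower in KO cells. WT arrays read 10.42, 10.58 and 10.39 in CD27 cells, 11.03, 11.04 and 10.99 in DP cells, then 10.69, 10.96 and 10.84 in CD11b cells. KO arrays read 10.54, 10.45 and 10.20, then 10.85, 10.82 and 10.55, then 10.47, 10.63 and 10.09. The genotypes overlapped in CD27 cells and not in DP or CD11b cells. The average fell by 0.26 on the log2 scale (95% interval of the fold 1.07 to 1.34, limma, adjusted p = 0.0465), which the random block (0.085), sample means (0.425) and leaving out KO replicate 3 (-0.15, adjusted p = 0.124) each ended, and in CD11b cells the difference was -0.44 (1.35-fold, 1.11 to 1.64, adjusted p = 0.139). From CD27 to DP cells Sh2d1b1 differed by 0.56 in WT (limma, adjusted p = 0.0935) and by 0.34 in KO mice (0.793). From DP to CD11b cells it differed by -0.19 (0.81) and -0.34 (0.458). None of these passed in that fit, and DP and CD11b arrays overlapped in KO mice. From CD27 to CD11b cells Sh2d1b1 was 1.29-fold higher in WT mice (adjusted p = 0.143), which passed with genotype and replicate number as a block (0.00663). The same difference in KO mice was 0.00, and the interaction did not pass (adjusted p = 0.863, or 0.209 with the block).

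Sh2d1a (SAP) was lowest in CD11b cells of both genotypes. WT arrays spanned 10.73 to 11.01 in CD27 cells, 10.74 to 11.03 in DP cells and 10.33 to 10.69 in CD11b cells. KO arrays spanned 10.69 to 10.73, 10.54 to 11.03 and 9.97 to 10.48. The CD11b arrays lay below the other 2 subsets in each genotype. From DP to CD11b cells the difference was -0.43 in WT (adjusted p = 0.333) and -0.58 in KO mice (adjusted p = 0.131), the latter passing with the block (0.0363), as did KO CD11b against CD27 (-0.51, adjusted p = 0.101 without and 0.0332 with it). Between genotypes the average difference was -0.19 (adjusted p = 0.213), and the arrays overlapped in every subset.

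With genotype and replicate number as a block, 4 of 9 members passed in WT CD11b against CD27 (background 10.9%), 1 in WT CD11b against DP (2.40%), 3 in KO CD11b against DP (1.84%) and 3 in KO CD11b against CD27 (6.17%). None passed in KO DP against CD27 (0.268%). The 3 in KO CD11b against DP were Slamf6, Sh2d1a and Sh2d1b1, the last at -0.34 (adjusted p = 0.0348).

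Counted over members, KO against WT gave 0 of 9 in CD27 cells (background 0.907%), 0 of 9 in DP cells (0.395%) and 0 of 9 in CD11b cells (1.29%). At an unadjusted p under 0.05 in limma these counts were 1, 4 and 5, where 11.6%, 9.64% and 13.0% of all probe sets were under it. The average over subsets gave 4 of 9 (8.08%), with Slamf1 higher (2.80% of all probe sets) and Slamf7, Cd244a and Sh2d1b1 lower (5.28%). The median difference of the members was -0.15, and that of all probe sets -0.02. KO and WT arrays did not overlap for 2 members in CD27 cells (16.4% of all probe sets), 6 in DP cells (14.6%) and 6 in CD11b cells (18.7%). They were Cd84 above and Cd244a below WT in CD27 cells, and Slamf1, Slamf6 and Cd84 above and Cd48, Cd244a and Sh2d1b1 below WT in DP cells. The 6 in CD11b cells were Slamf1 and Slamf6 above WT, and Slamf7, Cd48, Cd244a and Sh2d1b1 below.

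**Figure D4:**
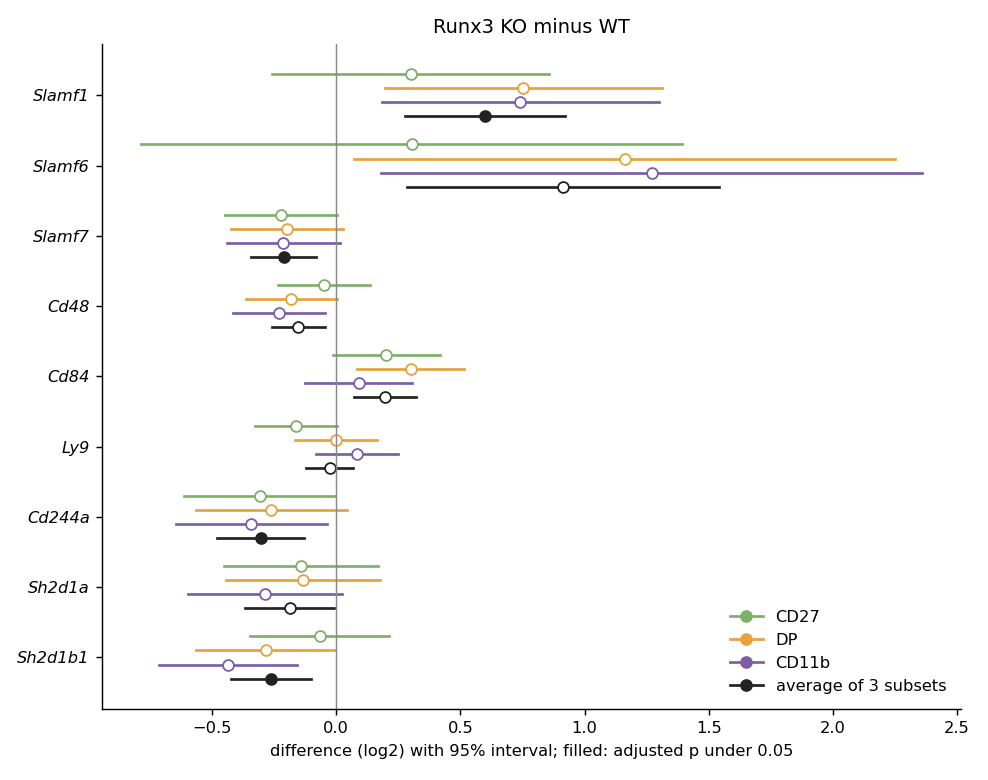
KO minus WT log2 difference of the 9 members in each subset and averaged over subsets, with 95% intervals from limma. Slamf1, Slamf6 and Cd84 lie above 0 in every subset, and Slamf7, Cd48, Cd244a, Sh2d1a and Sh2d1b1 below it, while Ly9 changes sign. The test was passed in the average by Slamf1, Slamf7, Cd244a and Sh2d1b1.

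These averages depended on how arrays with 1 replicate number were treated. With each sample's 3 subsets averaged first, none of the 9 passed in limma (background 0.201%; 2 of 9 at an unadjusted p under 0.05, and 12.0% of all probe sets), with the smallest adjusted p, 0.364, for Slamf1 among the 4. On such means 5 of 9 members did not overlap between genotypes (18.9% of all), each with p = 0.1 in a two-sided exact permutation test, the smallest that 3 against 3 allows. With the sample as a random block Slamf1 alone passed (adjusted p = 0.0458, background 4.48%), and the other 3 did not. With a fixed block on the replicate number, shared by both genotypes, a pairing the arrays did not show between them, 6 of 9 passed (background 10.8%), the same 4 with Slamf6 (adjusted p = 0.0168) and Cd48 (0.0184).

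Without the 3 arrays of KO replicate 3, none of the 4 passed, and Cd84 alone of the 9 passed (background 6.31%). The part of the signal of dendritic cells, neutrophils and other cell types on those arrays in these results was not tested. The NK marker mean there was 12.62 in CD27, 12.76 in DP and 12.74 in CD11b cells. On WT arrays of the same subsets it was 12.76 to 12.78, 12.91 to 13.02 and 13.04 to 13.12. Leaving out 1 array at a time, Slamf7 kept its call without CD27 KO replicate 1, DP KO replicate 1 or CD11b KO replicate 1 or 2. Sh2d1b1 kept it without CD27 KO replicate 1, CD11b WT replicate 1 or CD11b KO replicate 2. Cd244a lost it without replicate 3 of any of the 6 groups or without DP WT or CD11b WT replicate 2.

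No member's genotype difference was shown to vary between subsets: 0 of 9 passed the interaction of CD11b against CD27 (background 0.0367%) or the F test over subsets (0.0113%), where the adjusted p was 1 for each. With genotype and replicate number as a block 0 of 9 passed the former (0.331%). At an unadjusted p under 0.05 Ly9 was the 1 member in the former (0.0413, with 6.02% of all probe sets), and the F test had 0 of 9 (4.18%).

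Other genes of the pathway came from a list of 33, of which 32 had a single-symbol probe set. In the average of KO against WT 6 of 32 fell (background 5.28% lower) and 0 rose, with 8 and 0 when the replicate number was a fixed block and 9 and 0 with Xist as a covariate. Sh2d1b2, a second EAT-2-like adaptor of mice, was 2.48-fold lower (95% interval 1.63 to 3.77, adjusted p = 0.0109), with CD27 WT arrays at 9.16, 10.17 and 11.43. Pik3cd, a catalytic subunit of PI3 kinase, was 1.27-fold lower (adjusted p = 0.00216), with all 9 KO arrays below all 9 WT arrays. Arhgef7, Bcl10 and Ptpn6 differed by -0.21, -0.27 and -0.54 (adjusted p = 0.00672, 0.0101 and 0.012). Bcl10 is a signalling scaffold and Ptpn6 the phosphatase SHP-1. Without KO replicate 3, 3 of these passed (Ptpn6, Arhgef7 and Pik3cd), without WT replicate 2 or 3 it was 2 or 3, and with each sample's subsets averaged first, 0. In CD11b cells alone Arhgef7 was 1.32-fold lower in KO mice (adjusted p = 0.0135).

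In WT CD11b against CD27 cells 4 of 32 rose (background 2.88% higher) and 0 fell in this fit, and that split differed under several other settings. It was 4 higher and 4 lower with cyclic loess scaling, 6 and 3 with array weights, 6 and 4 with the sample as a random block and 5 and 7 with genotype and replicate number as a block. Without the 3 arrays of KO replicate 3 it was 5 and 3, and without those of WT replicate 1, 2 or 3 it was 0, 1 or 2 higher and 0 lower. The 4 were Plcg2, the phospholipase C gamma that acts below EAT-2 (0.54, adjusted p = 0.00681), Arhgef7 (0.38, 0.00721), the adaptor Sh3bp2 (0.80, 0.00954) and the adaptor Lat2 (0.55, 0.0247). The receptors Slamf8 and Slamf9, which belong to the same family and lack the tyrosine motifs, stayed between 4.78 and 5.80 on all arrays.

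Slamf6 was the one member whose group means spanned at least 1 log2 unit, and 981 genes with the same span were compared with it over the 18 arrays. Kbtbd11 (r = 0.952), Tnfrsf26 (r = 0.908) and Ubash3a (r = 0.896) were the 3 most alike by Pearson's r. The 18 points share 6 groups and possibly animals, and 2.75% of the 981 had r over 0.8, so these are descriptions with no test.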

How the data were processed

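RNA of sorted NK cells was hybridised to Affymetrix Mouse Gene ST arrays, 18 samples in 6 groups of 3. The authors deposited 1 normalised value per probe set and array. RMA and Partek are named per the submitters' processing notes, without versions. The deposited values were taken as log2 from their range. The genome build is not given in the sources used here. Arrays give no read depth, and their number limits the precision.

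Probe sets were named through the platform annotation: 21789 of 35399 carry 1 symbol, 1621 several and 11989 are not listed. All 18 arrays were fitted with limma 3.58.1 (statmod 1.5.0, R 4.3.3), 1 mean per group and a shared spread, with two-sided contrasts and Benjamini-Hochberg adjustment over all probe sets at 0.05. No filter or scaling was added. Code was tested on simulated data. An exact permutation test of 3 against 3 cannot go below p = 0.1.

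The members and lists were chosen with earlier results of these data known. The 9 members are always named, pathway genes if they passed in KO against WT or in WT CD11b against CD27 (up to 5 per comparison, smallest p first), and for Slamf6 the 3 genes most alike. Replicate numbers come from the sample titles. Same-numbered arrays deviated together between all pairs of KO subsets (r from 0.213 to 0.642), and in WT between CD11b and DP or CD27 cells (0.218 to 0.456), so numbers were taken as pairing there. In WT they were not taken so between CD27 and DP cells (-0.00943 to 0.44), nor between genotypes. The WT pairings with CD11b cells would by themselves pair CD27 with DP cells. Xist was low on replicate 1 alone in WT CD27, DP and CD11b cells (5.69, 5.32 and 5.19). Alternatives were cyclic loess, probe sets above the median mean, another prior, array weights, fixed and random blocks, Xist as a covariate, the compared groups alone, and leaving out arrays.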

Additional observations from a re-analysis of the deposited data

How the results depend on the processing

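The counts are of the 9 members passing limma's test, and 34 settings were run. Of 99 member comparisons 28 passed in some setting, and in these no setting turned the sign. The other 71 passed in none, and 25 of them changed sign in some setting, at differences between -0.165 and 0.150. The share of all probe sets passing in the same fit is in parentheses. With cyclic loess the counts were 1 in WT DP against CD27 (0.633%) and 2 in KO CD11b against CD27 (2.51%). With array weights they were 1 in WT DP against CD27 (1.29%), 5 in WT CD11b against CD27 (10.5%) and 2 in KO CD11b against CD27 (6.3%). With Xist as a covariate 2 passed in KO against WT in CD11b cells (2.75%).

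With replicate number alone as a fixed block 1 passed in KO against WT in CD11b cells (Sh2d1b1; 2.27%), 1 in WT DP against CD27 (0.757%), 1 in WT CD11b against DP (0.831%), 2 in KO CD11b against DP (0.684%) and 3 in KO CD11b against CD27 (2.79%). With the sample (genotype and replicate number) as a random block 1 passed in the average (4.48%), 1 in WT DP against CD27 (1.12%), 1 in WT CD11b against DP (1.38%), 2 in KO CD11b against DP (1.03%) and 3 in KO CD11b against CD27 (4.25%). With genotype and replicate number as a block, added after seeing the data, 3 passed in WT DP against CD27 (Slamf6, Cd48 and Sh2d1b1, 1.96%). The pairing was not shown directly there. That block gave 1 in WT CD11b against DP (2.4%), 3 in KO CD11b against DP (1.84%) and 3 in KO CD11b against CD27 (6.17%). The block changed no other count by over 1.5 times. Averaging the arrays of a sample first, also added, left 0 in the average (0.201%). The cause of these shifts was not tested.

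Without a whole sample the shares ran from 0.226% to 10.7% for the counts given next. Without KO replicate 3 in all subsets 1 passed in KO against WT in DP cells, 1 in the average, 1 in WT DP against CD27 and 0 in KO CD11b against CD27. The other such sets were added after seeing the data. Without WT replicate 1 the counts were 1 in DP cells, 1 in CD11b cells, 1 in the average, 1 in WT CD11b against DP and 1 in KO CD11b against DP. Without WT replicate 2 or WT replicate 3 the average gave 1 (Slamf6) or 0, WT CD11b against CD27 gave 1 in either, and KO CD11b against CD27 gave 0 without WT replicate 3. Without KO replicate 1 or KO replicate 2 the average gave 1 (Slamf7) or 2 (Cd244a and Sh2d1b1), and KO CD11b against CD27 gave 0. With 1 array left out at a time the count ranged from 0 to 4 in the average, and from 0 to 1 in KO CD11b against CD27, KO against WT in CD11b cells, KO CD11b against DP and WT DP against CD27. Another probe set per gene could not be tried, since each member had 1, and the compared groups alone were not run for the average or the F test.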

Other observations

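Xist, the RNA of the inactive X chromosome, differed between arrays by replicate number. It read 5.13 to 5.69 on the arrays of WT replicate 1, KO replicate 1 and KO replicate 2, and at least 12.48 on those of WT replicate 2, WT replicate 3 and KO replicate 3. The WT sample with low Xist was thus the one with the lowest Slamf6 and highest Slamf1 of its genotype. In KO replicates 1, 2 and 3, averaged over subsets, Slamf6 was 10.517, 10.632 and 10.876 and Slamf1 7.842, 7.741 and 7.626. KO replicates 1 and 2, with low Xist, thus had lower Slamf6 and higher Slamf1 than KO replicate 3. The KO sample with high Xist had the lowest Cd244a and Slamf7, and was also the one with the dendritic cell and neutrophil signal. In WT replicates 1, 2 and 3, averaged over subsets, Cd244a was 11.384, 11.422 and 11.557 and Slamf7 12.485, 12.430 and 12.535. WT replicate 3 was the highest for both genes, and WT replicate 2 was below WT replicate 1 for Slamf7 and above it for Cd244a. The part of sex in these levels was not tested. In each genotype it cannot be told apart from the single sample that differed in Xist. With Xist as a covariate 2 members passed in CD11b cells of KO against WT, Slamf6 and Cd48 (2.75% of all probe sets), and 6 in the average (12.4%), which were Slamf1, Slamf6, Slamf7, Cd48, Cd244a and Sh2d1b1.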
